A study of Mus musculus with 8 samples.

Results

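Wnt signalling was examined at the cell surface and outside the cell in the hippocampus of mice with and without Mbd2, a protein that binds methylated DNA. The genes were all rows of the expression table whose symbol starts with Wnt, Fzd, Sfrp, Dkk or Rspo followed by a number, together with Lrp5 and Lrp6. This rule gave 41 of the 19201 genes in the table, namely 18 Wnt ligands, 10 Frizzled receptors, 2 Lrp co-receptors, 4 secreted Frizzled-related proteins, 3 Dickkopf proteins and 4 R-spondins. Total RNA from which ribosomal RNA had been removed was sequenced from bilateral hippocampi of wild-type C57BL/6 mice, which the labels call control, and of Mbd2-/- mice with a C57BL/6 background, all aged 10 to 12 weeks, untreated and bred as littermates from heterozygous parents. Each genotype gave 4 libraries and each library pooled 2 mice, and p-values measure the spread between these pools. The Mbd2-/- allele is carried by every cell and keeps the first exon of Mbd2.

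Wnt proteins are lipid-modified ligands that bind Frizzled receptors. With Lrp5 or Lrp6 as co-receptor they stop the breakdown of beta-catenin, which then acts with TCF/LEF factors in the nucleus, and through other co-receptors they direct cell polarity and calcium signals. Secreted Frizzled-related proteins bind Wnts, classical Dickkopf proteins block the Lrp co-receptors, and R-spondins remove the ubiquitin ligases Znrf3 and Rnf43 that clear Frizzled from the membrane. In the adult hippocampus the pathway is known for its part in neurogenesis in the dentate gyrus and in the making and upkeep of synapses.

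The deposited values were normalized counts, which are reads on a gene divided by a size factor of the library, and 1 read was worth between 0.531 and 1.59 of them. Libraries held 8087750 to 23790825 reads on genes, and no 2 libraries of a genotype were alike within counting noise. Mbd2 itself had 295, 363, 371 and 354 normalized counts in wild-type replicates 1 to 4 and 244, 239.6, 339 and 217 in Mbd2-/- replicates 1 to 4, with overlap in Mbd2-/- replicate 3 (log2 fold change -0.43 ± 0.12 SE, limma adjusted p = 0.0174). The authors place the reads on Mbd2 in Mbd2-/- mice in its first exon, which is intact. Markers of hippocampal neurons summed to 12184 to 12499 normalized counts in wild-type and 11686 to 12314 in Mbd2-/- libraries, and none of the 10 was at 0 in every library. In the Mbd2-/- libraries, expression against the wild-type mean fell with transcript length, with a Spearman's rho across genes of -0.48, -0.43 and -0.48 in replicates 1 to 3 and of -0.10 in replicate 4, which thereby stood apart. Genes are not independent replicates, and these correlations are descriptions.

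Of the 41 genes, 34 had a mean of at least 10 normalized counts over the 8 libraries and entered the limma test, which was run on log2(normalized count + 1). Expression was higher in Mbd2-/- hippocampi for 2 of them, Sfrp1 and Fzd4, and lower for 4, namely the R-spondin Rspo2 and the ligands Wnt3, Wnt4 and Wnt5a, at a Benjamini-Hochberg adjusted p under 0.05 over all 14504 genes tested. The shares were 5.88% higher and 11.8% lower, beside 12.0% higher and 10.0% lower among all genes tested, and 22.0% of all genes were called in either direction. The number of called genes was thus not above what the whole table showed. Wild-type and Mbd2-/- libraries were fully separated in 13 of the 34 genes (38.2%), beside 23.6% of all genes tested. The median log2 fold change of the 34 genes was -0.09, with 22 negative and 12 positive values, beside a median of -9.1e-05 over all genes tested. Of the tested genes, Wnt16 alone had a genotype mean under 10, and of the 7 genes not tested, Wnt6 alone had a genotype mean of at least 10.

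**Figure D1:**
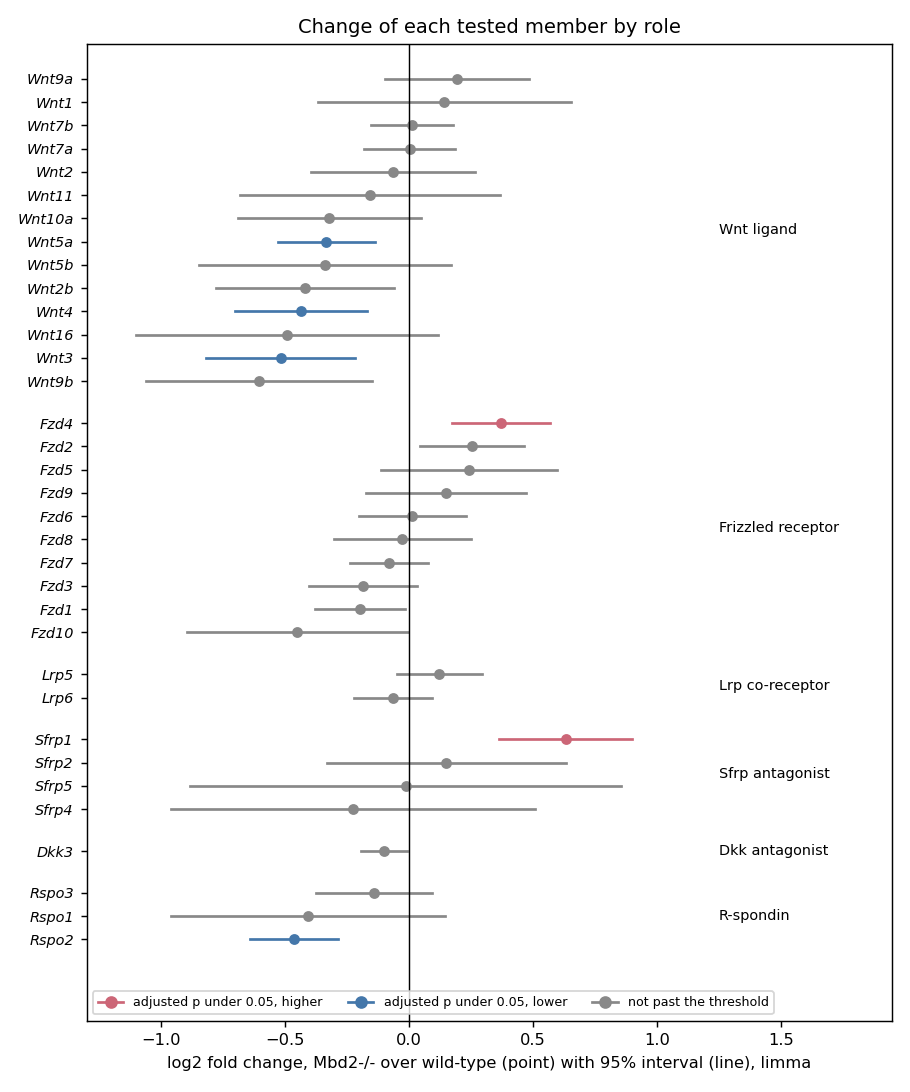
Log2 fold change of the 34 tested genes, Mbd2-/- over wild-type, as a point with its 95% interval from limma, ordered within each role (n = 4 libraries a genotype). The colours mark the 2 genes called higher (Sfrp1 and Fzd4) and the 4 called lower (Wnt3, Wnt4, Wnt5a and Rspo2), and 10 of the 14 ligands but 5 of the 10 Frizzled receptors have their point to the left of 0.

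Among the ligands, 14 of 18 were tested, 3 were lower (21.4%, beside 10.0% of all genes tested) and 0 were higher by limma. At an unadjusted p under 0.05 were 5 of the 14 (35.7%), about the share of all genes tested (35.5%). With a library left out the ligands gave 0 to 4 lower, and the count of 0 came without wild-type replicate 4, when 6.24% of all genes were lower. Without Mbd2-/- replicate 4, 1 ligand, Wnt9a, was called higher, when 17.9% of all genes were. With all libraries, the DESeq2 and edgeR tests on recovered reads also called 0 ligands higher. The median log2 fold change of the 14 was -0.33, and 10 of the 14 values were negative. Wnt3, a ligand that promotes adult hippocampal neurogenesis, had 61.5, 71.5, 55.6 and 64.8 normalized counts in wild-type replicates 1 to 4 and 48.5, 37.5, 44.6 and 45.2 in Mbd2-/- replicates 1 to 4. Every Mbd2-/- library lay below every wild-type library, with means of 63.3 ± 6.62 and 44.0 ± 4.64 (SD, n = 4). The log2 fold change was -0.52 ± 0.14 (SE, limma adjusted p = 0.0162), and the exact two-sided permutation test gave p = 0.0286, the smallest value that 4 libraries against 4 allow, as it did for each of the 6 called genes. Wnt3 lies on chromosome 11 of mm9 from 103635464 to 103679271 on the plus strand. It was not called without wild-type replicate 2 (adjusted p = 0.0577, limma), wild-type replicate 4 (0.0514) or Mbd2-/- replicate 2 (0.0557).

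Wnt4, a ligand known from kidney and gonad development, had 118, 117, 139 and 138 normalized counts in wild-type and 107, 98.8, 102 and 73.0 in Mbd2-/- replicates 1 to 4. The groups did not overlap, and Mbd2-/- replicate 4 was the lowest of the 8. The means were 128 ± 11.9 and 95.3 ± 15.2 (SD, n = 4), a log2 fold change of -0.43 ± 0.13 (SE, limma adjusted p = 0.0212). Wnt4 lies on chromosome 4 of mm9 from 136833404 to 136855641 on the plus strand. Its call was lost without wild-type replicate 3 (adjusted p = 0.0758, limma) or wild-type replicate 4 (0.0710), and without the mean-variance trend and robust moderation (0.0510).

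Wnt5a is the best known ligand of the branch that does not use beta-catenin. It had 157, 160.3, 156 and 170.5 normalized counts in wild-type and 114, 134, 131 and 134 in Mbd2-/- replicates 1 to 4. All 4 Mbd2-/- libraries were below the wild-type range, with replicate 1 the lowest. The means were 161 ± 6.58 and 128 ± 9.57 (SD, n = 4), a log2 fold change of -0.33 ± 0.09 (SE, limma adjusted p = 0.0169). Wnt5a lies on chromosome 14 of mm9 from 29317936 to 29340633 on the plus strand, and an annotated lincRNA on the minus strand, Gm2670, overlaps it. Its longest transcript has 7009 bases, against a median of 3187 over all genes tested, and when the trend on transcript length was removed from each library its log2 fold change was -0.22 and the call was lost (adjusted p = 0.118, limma). It was also lost without wild-type replicate 4 (0.0644) or Mbd2-/- replicate 1 (0.0571).

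**Figure D2:**
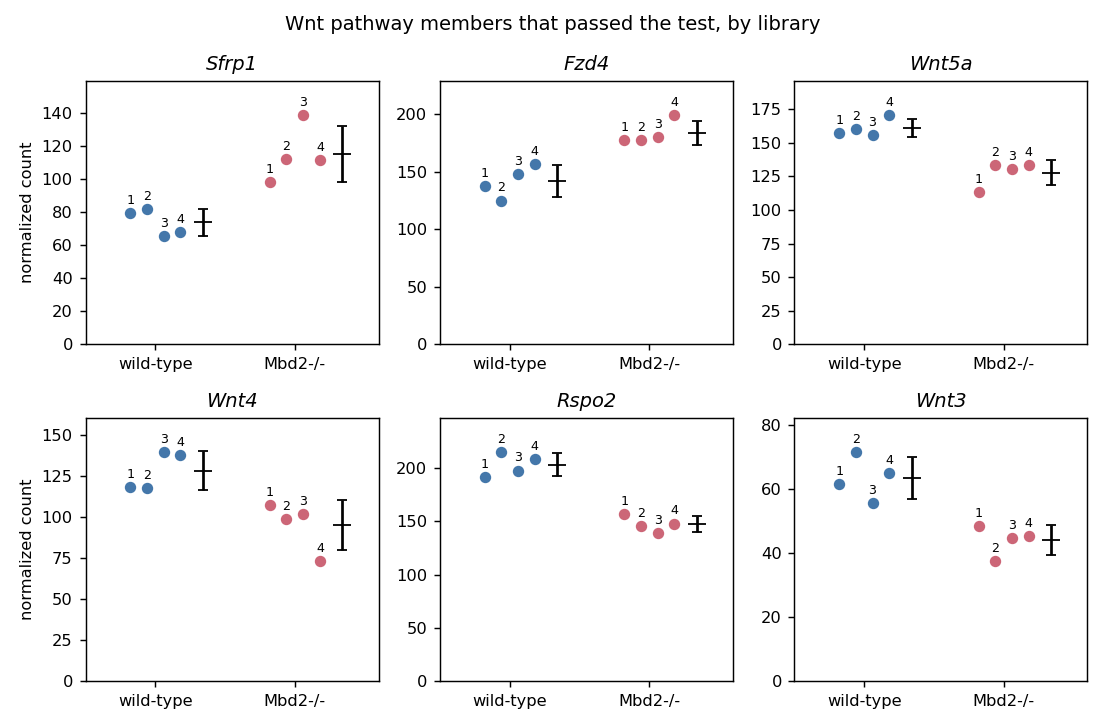
Normalized counts of the 6 called genes in each library, with replicate numbers beside the points and the mean with its SD beside each group (n = 4 libraries, vertical axes from 0). No gene shows overlap between the genotypes, with Sfrp1 at 65.6 to 82.0 in wild-type and 98.3 to 139 in Mbd2-/- libraries.

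Rspo2, an R-spondin that strengthens Wnt signalling through the Lgr receptors, had the smallest adjusted p of the 34 tested genes. It had 192, 215, 198 and 209 normalized counts in wild-type and 157, 145, 139 and 148 in Mbd2-/- replicates 1 to 4. The genotypes were far apart relative to their spread, with means of 203 ± 10.5 and 147 ± 7.61 (SD, n = 4). The mean was 27.6% lower, a log2 fold change of -0.46 ± 0.08 (SE, limma adjusted p = 0.00138). Rspo2 lies on chromosome 15 of mm9 from 42852357 to 43002364 on the minus strand. It was called with each library left out in turn and in all 12 other alternatives, with a largest adjusted p of 0.00855 over these fits.

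The other R-spondins gave no call. Rspo3 was at 112, 115, 111 and 119 normalized counts in wild-type and 85.6, 114, 105 and 112 in Mbd2-/- replicates 1 to 4, with Mbd2-/- replicate 1 the lowest (log2 fold change -0.14, 95% interval -0.37 to 0.09, and -0.05 without that library). Rspo1 had means of 16.9 ± 2.91 and 12.7 ± 3.71 (SD, n = 4), with overlap. Rspo4, at 0 to 1.83 normalized counts, was not tested.

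Sfrp1, a secreted protein that binds Wnts through a domain like that of the Frizzled receptors, had the largest positive change. It had 79.4, 82.0, 65.6 and 68.0 normalized counts in wild-type and 98.3, 112, 139 and 111 in Mbd2-/- replicates 1 to 4. The lowest Mbd2-/- library was above the highest wild-type library, and Mbd2-/- replicate 3 was the highest. The means were 73.8 ± 8.16 and 115 ± 16.9 (SD, n = 4), which is 56.2% higher and a log2 fold change of 0.63 ± 0.13 (SE, limma adjusted p = 0.00262). Sfrp1 lies on chromosome 8 of mm9 from 24521974 to 24560104 on the plus strand. It was called in all 12 other alternatives and with each library left out in turn, with log2 fold changes from 0.54 to 0.70.

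Of the other secreted Frizzled-related proteins, Sfrp2, Sfrp4 and Sfrp5 had means of 15.4, 14.2 and 19.7 normalized counts over the 8 libraries, and none was called. Sfrp2 ranged from 13.7 to 15.0 in wild-type and from 14.0 to 19.1 in Mbd2-/- libraries. Sfrp4 and Sfrp5 varied so much within genotypes that their 95% intervals ran from -0.96 to 0.51 and from -0.88 to 0.86 on the log2 scale. The interval of Sfrp5 included the value found for Sfrp1, and its coefficients of variation between libraries were 42.0% and 67.8%.

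Fzd4, a receptor known for its part in the vessels of the retina and brain, where it also binds the ligand norrin, was the called receptor. It had 138, 125, 148 and 157 normalized counts in wild-type and 177, 177, 180.1 and 199 in Mbd2-/- replicates 1 to 4. The groups did not overlap, and 3 of the Mbd2-/- libraries were nearly equal. The means were 142 ± 13.6 and 183 ± 10.4 (SD, n = 4), which is 29.4% higher and a log2 fold change of 0.37 ± 0.09 (SE, limma adjusted p = 0.0102). Fzd4 lies on chromosome 7 of mm9 from 96552876 to 96558620 on the plus strand. It was called in all 12 other alternatives and with each library left out in turn, with a largest adjusted p of 0.0384. The summed markers of endothelium and pericytes, cells of the vessel wall, were 1859 to 2014 normalized counts in wild-type and 2033 to 2160.1 in Mbd2-/- libraries, with 1 of the 5 markers called higher and 0 lower. Whether this had a part in the value of Fzd4 was not tested.

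With all libraries, none of the remaining 9 Frizzled genes was called by limma, and 3 of them had an unadjusted p under 0.05, and 0 were called by DESeq2 or edgeR. Of all 10 log2 fold changes, 5 were positive. Fzd2 was at 129, 158, 149.5 and 158 normalized counts in wild-type and 167, 176, 202 and 163 in Mbd2-/- replicates 1 to 4. Its groups did not overlap but it missed the threshold (log2 fold change 0.25, adjusted p = 0.0773, limma), and it was called without Mbd2-/- replicate 4 (0.29, adjusted p = 0.0280). Fzd1 was at 223, 196, 199.6 and 196 in wild-type and 181, 173, 193 and 163 in Mbd2-/- replicates 1 to 4, again without overlap and not called (log2 fold change -0.20, adjusted p = 0.108, limma). Fzd10 was at 22.5, 30.1, 22.8 and 36.6 in wild-type and 17.9, 20.1, 22.3 and 19.2 in Mbd2-/- replicates 1 to 4, and its groups did not overlap either (log2 fold change -0.45, adjusted p = 0.136, limma). Fzd7 was separated narrowly, with 211 to 224 in wild-type and 203 to 209 in Mbd2-/- libraries (log2 fold change -0.08). Once the trend on transcript length was removed, its value was -0.01 (adjusted p = 0.926, limma). The log2 fold changes of Fzd5, Fzd6, Fzd8 and Fzd9 lay between -0.03 and 0.24, and their groups overlapped.

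Fzd3, a receptor needed for axon guidance and planar polarity, and Lrp6, the main co-receptor for beta-catenin signalling, both had values that depended on Mbd2-/- replicate 4. Fzd3 had 1833, 1919, 1849.6 and 1915 normalized counts in wild-type replicates 1 to 4 and 1476, 1631, 1423 and 2177 in Mbd2-/- replicates 1 to 4. In 3 Mbd2-/- libraries it was below the wild-type range and in replicate 4 above it. With all libraries its log2 fold change was -0.18 (SE 0.10, limma adjusted p = 0.210), and without Mbd2-/- replicate 4 it was -0.32 (adjusted p = 2.4e-05, limma). Without Mbd2-/- replicate 3 it was -0.11 (adjusted p = 0.471, limma). Lrp6 had 1314, 1179, 1306 and 1299 in wild-type and 1122, 1198, 1132 and 1446 in Mbd2-/- replicates 1 to 4, so that replicate 4 was again the highest of the 8 libraries. Its log2 fold change was -0.06 (adjusted p = 0.572, limma) with all libraries, -0.15 without Mbd2-/- replicate 4 (adjusted p = 0.0301), -0.02 without Mbd2-/- replicate 1 (adjusted p = 0.869) and 0.07 once the trend on transcript length was removed (adjusted p = 0.372), with a longest transcript of 9368 bases. The other co-receptor, Lrp5, had 238 ± 9.81 normalized counts in wild-type libraries and 260 ± 22.6 under Mbd2-/- (SD, n = 4), with a log2 fold change of 0.12 and a 95% interval from -0.05 to 0.30. Its value was 0.19 without Mbd2-/- replicate 4 (adjusted p = 0.0641, limma) and 0.20 once the trend on transcript length was removed (0.123), without a call.

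**Figure D3:**
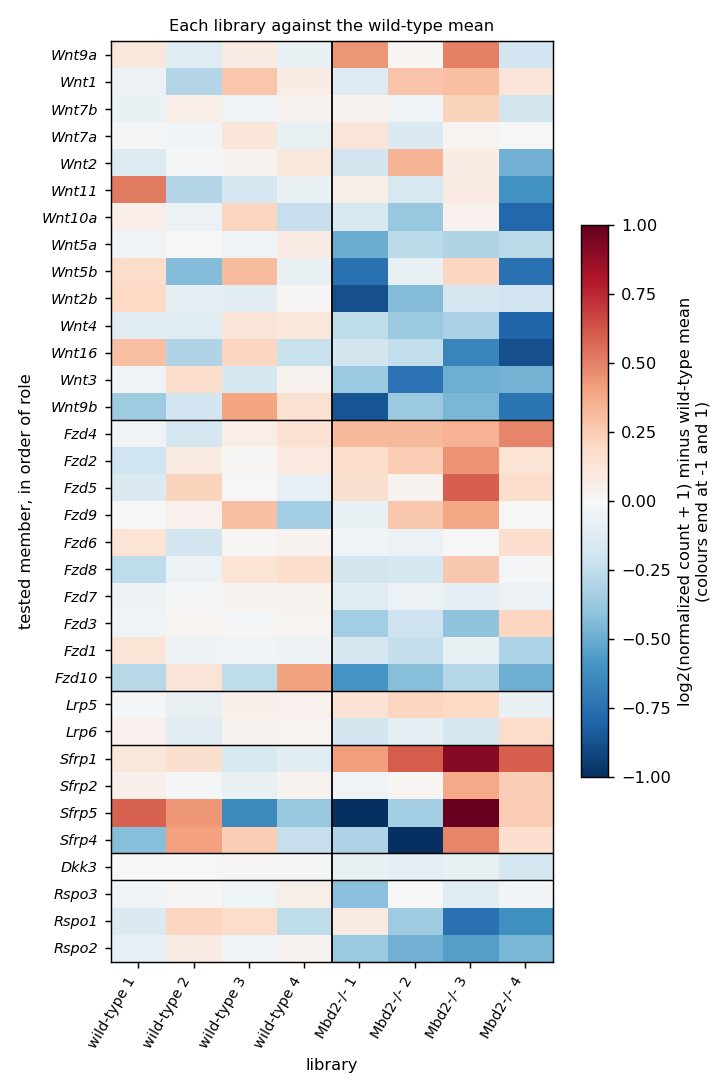
Log2(normalized count + 1) of each library minus the wild-type mean for the 34 tested genes, in the order of role used for the fold changes. In the column of Mbd2-/- replicate 4, Fzd3 and Lrp6 are above the wild-type mean where the other 3 Mbd2-/- libraries are below it, and Sfrp4 and Sfrp5 vary within both genotypes.

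Promoter sequences were looked at because Mbd2 recognises methylated CG dinucleotides. RefSeq windows from 250 bases before to 50 bases after the start (GRCm38.p6) matched 26 of the 41 genes with 29 windows. Among the called genes Fzd4, Wnt3 and Wnt4 had one. The windows of these 3 genes and of Wnt9b, the close neighbour of Wnt3, are given 5′ to 3′ on the strand of the gene with every CG in capitals.
Fzd4, chr7:89404116-89404415, plus strand: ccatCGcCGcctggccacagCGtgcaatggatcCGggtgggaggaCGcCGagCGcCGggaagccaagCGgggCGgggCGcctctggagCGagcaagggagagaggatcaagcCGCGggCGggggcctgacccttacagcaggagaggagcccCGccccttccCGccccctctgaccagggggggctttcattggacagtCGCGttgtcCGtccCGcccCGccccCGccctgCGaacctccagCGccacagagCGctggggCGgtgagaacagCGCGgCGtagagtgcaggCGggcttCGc
Wnt3, chr11:103773925-103774224, plus strand: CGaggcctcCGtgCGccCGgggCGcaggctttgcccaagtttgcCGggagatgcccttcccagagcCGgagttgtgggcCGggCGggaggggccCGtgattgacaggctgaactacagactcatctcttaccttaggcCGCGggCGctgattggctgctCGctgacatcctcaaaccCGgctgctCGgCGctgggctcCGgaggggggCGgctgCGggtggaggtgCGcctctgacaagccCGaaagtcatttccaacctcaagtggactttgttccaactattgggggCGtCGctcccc
Wnt4, chr4:137277385-137277684, plus strand: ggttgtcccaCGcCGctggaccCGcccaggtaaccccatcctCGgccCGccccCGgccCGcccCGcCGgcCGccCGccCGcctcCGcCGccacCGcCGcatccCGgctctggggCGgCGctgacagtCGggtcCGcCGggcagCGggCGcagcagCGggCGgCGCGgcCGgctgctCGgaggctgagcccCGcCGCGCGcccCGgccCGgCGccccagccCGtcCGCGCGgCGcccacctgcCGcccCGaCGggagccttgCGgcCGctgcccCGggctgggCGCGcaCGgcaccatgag
Wnt9b, chr11:103749772-103750071, minus strand: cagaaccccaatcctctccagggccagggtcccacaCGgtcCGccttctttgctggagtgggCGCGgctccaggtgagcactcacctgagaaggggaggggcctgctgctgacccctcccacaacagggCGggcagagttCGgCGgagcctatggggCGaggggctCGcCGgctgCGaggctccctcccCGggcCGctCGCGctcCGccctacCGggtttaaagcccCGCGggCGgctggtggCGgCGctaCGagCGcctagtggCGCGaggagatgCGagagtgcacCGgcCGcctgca

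These windows held 32 CG in Fzd4, 24 in Wnt3, 51 in Wnt4 and 29 in Wnt9b. Over all 32851 windows of the same length the median was 7, and over the 29 windows of the Wnt genes it was 29. Of all windows, 9.52% held at least as many as Fzd4, 19.98% as many as Wnt3, 0.715% as many as Wnt4 and 12.9% as many as Wnt9b. One form of the TCF/LEF core motif, searched as TCAAAG and as CTTTGA on the other strand, was in none of these 4 windows. It was in 3 of the 29 windows of the Wnt genes (10.3%) and in 16.0% of all windows. The form that ends in T, CTTTGT, was not searched, and the Wnt3 window holds it. A match or its absence in 300 bases is a description of the letters, and no methylation or binding was measured in these libraries.

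Ligand genes lie in pairs in the mouse genome, and 4 such pairs had 100 kb or less between the genes on mm9. The nearest pair to a call was Wnt9b and Wnt3, which lie 24.3 kb apart on chromosome 11 on opposite strands with their starts facing each other. Wnt9b had 24.0, 27.1, 41.0 and 34.5 normalized counts in wild-type and 16.6, 23.8, 22.3 and 18.3 in Mbd2-/- replicates 1 to 4. Its highest Mbd2-/- library was just below its lowest wild-type library, and its log2 fold change of -0.60 was the most negative of the 34 (SE 0.21, limma adjusted p = 0.0533). Beside the call of Wnt3 (log2 fold change -0.52), it passed the threshold with edgeR (adjusted p = 0.0368), limma-voom (0.0438) and upper quartile scaling (0.0492, limma), and without wild-type replicate 1 (0.0421, limma). These were 3 of 11 other alternatives and 1 of 8 fits with a library left out, and it did not pass with DESeq2 (adjusted p = 0.0700), with the length trend removed (0.0982, limma) or without wild-type replicate 3 (0.177, limma).

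In the other 3 pairs the partner was too low to test. Wnt10a had 59.0 ± 7.80 normalized counts in wild-type libraries and 47.8 ± 11.5 under Mbd2-/- (SD, n = 4, log2 fold change -0.32, adjusted p = 0.201, limma, and -0.17 without Mbd2-/- replicate 4), and its neighbour Wnt6, 6.20 kb away on chromosome 1, had 15.0, 9.03, 9.12 and 10.1 in wild-type and 7.66, 9.15, 4.78 and 1.92 in Mbd2-/- replicates 1 to 4. Wnt9a was at 132, 112, 129 and 116 in wild-type and 166, 123, 174 and 107 in Mbd2-/- replicates 1 to 4, which overlapped, with its neighbour Wnt3a at 0 to 3.01. Without Mbd2-/- replicate 4 its log2 fold change went from 0.19 (adjusted p = 0.334, limma) to 0.32 (0.0343), and without Mbd2-/- replicate 3 or 1 it was 0.09 (0.672) or 0.11 (0.649). Wnt1 had 14.2 ± 2.53 in wild-type libraries and 15.8 ± 2.22 under Mbd2-/- (SD, n = 4), with Wnt10b at 2.55 to 6.38.

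The ligands with the highest levels gave differences near 0. Wnt7b, a ligand that neural cells send to brain vessels and to synapses, had 582, 636, 593 and 623 normalized counts in wild-type and 624, 592, 714 and 535 in Mbd2-/- replicates 1 to 4. The Mbd2-/- libraries lay on both sides of the wild-type range, and the 95% interval of the log2 fold change ran from -0.15 to 0.18. Its close relative Wnt7a had 186, 184, 204 and 178 in wild-type and 206, 170.1, 191 and 187 in Mbd2-/- replicates 1 to 4, which overlapped, with an interval from -0.18 to 0.19. Wnt2b was not called with all libraries (65.9, 53.4, 52.9 and 57.9 against 30.6, 42.1, 51.0 and 50.0, log2 fold change -0.42, adjusted p = 0.0850, limma) and was called without Mbd2-/- replicate 3 (adjusted p = 0.0471) or Mbd2-/- replicate 4 (0.0301), while without Mbd2-/- replicate 1, its lowest library, the value was -0.27 (0.251). Wnt16, at 16.5, 10.5, 15.5 and 11.2 in wild-type and 11.5, 11.0, 7.97 and 6.73 in Mbd2-/- replicates 1 to 4, had a log2 fold change of -0.49 with an interval that included 0 (-1.10 to 0.12). The other tested ligands, Wnt2, Wnt5b and Wnt11, had log2 fold changes from -0.34 to -0.06 and overlapped.

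Levels can be compared between genes only per length, and for this the mean normalized count over the 8 libraries was divided by the length of the longest annotated transcript. On this scale Dkk3, a divergent Dickkopf protein, stood highest with 1365 normalized counts per kb, followed by Fzd3 with 428, Wnt7b with 175, Lrp6 with 133 and Wnt7a with 59.4. The called genes were at 52.7 in Rspo2, 44.1 in Fzd4, 26.6 in Wnt4, 21.6 in Sfrp1, 20.6 in Wnt5a and 17.4 in Wnt3. The 7 untested genes Wnt6, Wnt8b, Wnt10b, Dkk2, Wnt3a, Rspo4 and Dkk4 had means from 0.413 to 8.34 normalized counts over the libraries and from 0.317 to 4.03 per kb, and the tested genes Sfrp4 (3.51 per kb) and Wnt16 (3.20 per kb) lay within that range. Wnt8a and Dkk1 were not analysed here.

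Dkk3 also had the smallest spread among wild-type libraries. It was at 4762, 4725, 4768 and 4708 normalized counts in wild-type and 4520.4, 4465, 4511 and 4198 in Mbd2-/- replicates 1 to 4. All Mbd2-/- libraries were below all wild-type libraries, whose coefficient of variation was 0.604%. The log2 fold change was small and missed the threshold (-0.10, SE 0.04, limma adjusted p = 0.119). The other 2 Dickkopf genes were too low to test, with Dkk2 at 5.09 ± 2.62 and 7.42 ± 1.52 (SD, n = 4) and Dkk4 at 0 to 1.59.

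**Figure D4:**
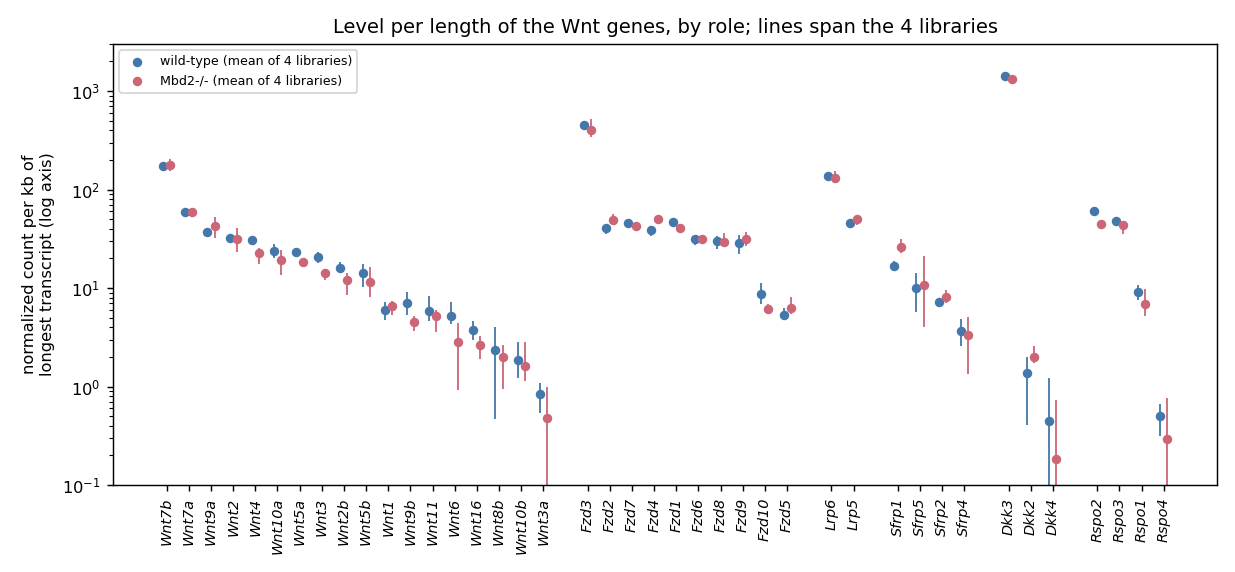
Level of the 41 genes per kb of longest transcript on a log axis, as the mean of 4 libraries for each genotype with a line over the range of the libraries, ordered by role and level (lines that reach 0 leave the axis at its lower end). Dkk3 is at 1365 and Fzd3 at 428 normalized counts per kb over all libraries, and the called genes lie between 17.4 and 52.7.

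The rest of the pathway was read from 6 lists with 96 genes in all, of which 95 were in the table and 90 were tested. In Mbd2-/- hippocampi 4 were higher (4.44%) and 15 lower (16.7%), beside 12.0% and 10.0% of all genes tested, with a median log2 fold change of -0.04. Once the trend on transcript length was removed, 8 were higher and 8 lower, beside 8.09% and 6.80% of all genes in that fit. Their longest transcripts had a median length of 4277.5 bases. Without Mbd2-/- replicate 4 the lists gave 6 higher and 23 lower, beside 17.9% and 17.7% of all genes. Without wild-type replicate 1 they gave 4 and 8, beside 8.49% and 5.99% of all genes. With all libraries, the shares of 12.0% higher and 10.0% lower also stand beside the counts of each list below.

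Of 14 secretion and extracellular genes, 2 were higher and 0 lower by limma, with 3 at an unadjusted p under 0.05. Sostdc1, a secreted antagonist of Wnt and BMP signals, rose from 114 ± 5.96 to 227 ± 18.8 normalized counts (SD, n = 4, log2 fold change 0.99, SE 0.09, limma adjusted p = 5.18e-06), and its libraries ran from 108 to 122 in wild-type and from 207 to 244 in Mbd2-/-. Choroid plexus markers, given below, were also higher in Mbd2-/- libraries. Whether that tissue had a part in the value of Sostdc1 was not tested. Apcdd1, a membrane inhibitor of Wnt signals, had a log2 fold change of 0.28. Frzb, the remaining gene of the Sfrp family, which the symbol rule does not match, had 270.5 ± 32.6 and 274 ± 35.3 (SD, n = 4) and was not called. Of 13 co-receptor and receptor turnover genes, Ror1 (-0.39), a co-receptor for Wnt5a, and the ubiquitin ligase Znrf3 (-0.22) were lower on the log2 scale, and both overlapped between the genotypes. Both calls were lost once the trend on transcript length was removed, when 1 other gene of this list, Lrp4, was called higher (-0.30 with adjusted p = 0.111 for Ror1, and -0.12 with adjusted p = 0.254 for Znrf3, limma), and Znrf3 was not called by DESeq2 (adjusted p = 0.0518). With a library left out in turn, Ror1 was called in 3 of 8 fits and Znrf3 in 1 of 8, the fit without Mbd2-/- replicate 4.

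Inside the cell, 5 of 23 cytoplasmic transducers were lower, among them Nkd2 (log2 fold change -0.63), Tnks (-0.31) and Dvl3 (-0.23). Ctnnb1, which encodes beta-catenin, had 7072 ± 257 and 7102 ± 143 normalized counts (SD, n = 4), and the 95% interval of its log2 fold change ran from -0.09 to 0.10. Of 15 nuclear partners, 5 were lower (33.3%) and 1 higher (6.67%), beside 10.0% and 12.0% of all genes tested. Tcf7l2, a TCF factor and also a known marker of the thalamus, fell from 367 ± 16.3 to 262 ± 27.3 (SD, n = 4, log2 fold change -0.49, adjusted p = 7.7e-04, limma), with Tle2 at -0.43, Chd8 at -0.25 and Cby1 at 0.34. Once the trend on transcript length was removed, 3 transducers were lower (Dvl3, Tnks and Nkd2) and 1 higher (Apc), and of the nuclear partners 2 were lower (Tcf7l2 and Tle2) and 0 higher. Of the calls lost, Csnk1d went from -0.15 to -0.13, Apc2 from -0.17 to -0.04, Bcl9 from -0.25 to -0.14 and Tle3 from -0.23 to -0.10. Chd8 was then at -0.12 (adjusted p = 0.110, limma) and Cby1 at 0.11 (adjusted p = 0.354), and Tnks, still called, was at -0.20. Cby1 was also not called without wild-type replicate 4 or without the mean-variance trend and robust moderation. Nkd2 was not called without wild-type replicate 1 or 3, or without that trend and robust moderation. Dvl3 was called in 2 of 8 fits that each left out a library.

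Of 15 common target genes of beta-catenin, 1 was higher (Apcdd1) and 1 lower (Znrf3), which are the genes already named, and the median log2 fold change was 0.01. Axin2, the usual readout of beta-catenin signalling, had 415, 417, 380.1 and 394 normalized counts in wild-type and 402, 377, 411 and 339 in Mbd2-/- replicates 1 to 4. The libraries of both genotypes overlapped (log2 fold change -0.07, SE 0.07, limma adjusted p = 0.511). The log2 fold change of Axin2 was -0.017 without Mbd2-/- replicate 4 and -0.024 once the trend on transcript length was removed, without a call. Lef1 was not called either (-0.23, adjusted p = 0.173, limma). Of 19 genes of planar polarity and the branch without beta-catenin, Vangl1 (-0.47), Celsr3 (-0.45) and Celsr2 (-0.30) were lower and Rhoa (0.22) was higher on the log2 scale. Once the trend on transcript length was removed, Rhoa was not called (0.14, adjusted p = 0.0566, limma), Celsr2 was at -0.16 and still called, and Vangl2, Prickle2 and Daam2 were called higher. In that fit 2 of the 15 target genes were higher (Apcdd1 and Tnfrsf19) and 0 lower.

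Several marker lists of other tissues and cell types differed between the genotypes, while the sums of the striatal list overlapped. In these bulk samples fewer cells of a type and less RNA per cell cannot be told apart. Of all genes tested, 12.0% were higher and 10.0% lower, and these shares stand beside the counts below. The 10 choroid plexus markers were all called higher, with sums of 14366 to 15595 normalized counts in wild-type and 30920.0 to 38414 in Mbd2-/- libraries. Of 10 thalamus markers 8 were lower and 0 higher by limma, with sums of 4189.6 to 4319 and 2893 to 3101. Meningeal markers had 3 higher and 3 lower of 10, with sums of 1433 to 1524 and 1810.5 to 2337. Of 7 ependymal markers 3 were higher, with sums of 535 to 592 and 611 to 814. Astrocyte markers had 4 of 5 higher (19769.8 to 20689 and 25219 to 25611), oligodendrocyte markers 3 of 5 (69963 to 71298 and 82408 to 88449) and microglia markers 4 of 5 (3565 to 3649 and 3851 to 4504). Striatal markers had 1 higher and 1 lower of 7 (1984 to 2078 and 1946 to 2102). Of 10 hippocampal neuron markers 2 were higher (Spink8 and Bok) and 3 lower, which were the defining genes Prox1, Fibcd1 and Wfs1. No marker was at 0 in every library, the defining genes Ttr, Kl and Folr1 of the choroid plexus and Prkcd, Tnnt1 and Rgs16 of the thalamus included. The part of these tissues and cells in the values of the Wnt genes and of the other pathway genes was not tested.

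**Figure D5:**
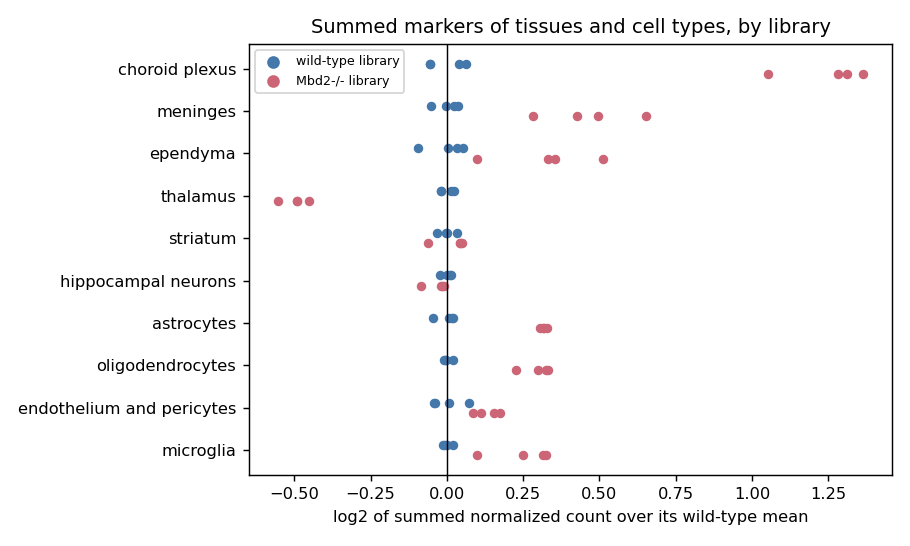
Summed normalized count of each marker list in each library as log2 over its wild-type mean (n = 4 libraries a genotype). The Mbd2-/- libraries lie to the right for the choroid plexus (30920.0 to 38414 normalized counts) and to the left for the thalamus (2893 to 3101), and the sums of hippocampal neurons overlap between the genotypes.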

How the data were processed

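RNA-seq libraries, 4 a genotype, were grouped by sample title. The authors removed duplicated reads, aligned to mm9 with STAR and used DESeq2; versions and the read counter are not given in the sources used here. The signal deposited by the authors is a count divided by the DESeq2 size factor. Deposited columns with the authors' own fold changes, test statistics and p-values were not used. Within a library 100% of values were whole multiples of the smallest, to within 0.01 of a read, which recovered the reads, and on these DESeq2 called 2988 genes and edgeR 3172, beside 3185 by limma.

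Genes with a mean of 10 or more were tested on log2(value + 1) with limma 3.58.1 in R 4.3.3 (trend, robust), so fold changes of low genes are understated. An adjusted p under 0.05 was a call. The alternatives were DESeq2 1.42.0, edgeR 4.0.16 (TMM) and limma-voom on recovered reads, and other scalings, filters and pseudocounts. Further ones were moderation without its trend and robust options, a replicate block, removal of a length trend and each library left out. Values given as ± are SDs unless marked SE. Positions and transcript lengths are from GENCODE vM1, in which 16812 symbols matched directly and 1290 by a synonym. All 41 genes could be named, with every library for called genes, the 5 highest per kb, the 3 uncalled with the largest changes and neighbours of called genes; of each pathway list, the 3 largest calls in each direction, with Axin2, Lef1, Ctnnb1 and Tcf7l2. Wnt2b, Wnt9a, Wnt6, Fzd1, Fzd2, Lrp5, Rspo3, Sfrp5, Frzb and the other list genes were described further after their values were seen. Members and lists were chosen with earlier results of these data known.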

Additional observations from a re-analysis of the deposited data

Results flagged for a closer look

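A library was marked when it stood apart from the other 3 of its genotype by more than Dixon's 95% criterion, the gap over the whole range of the 4. Of 126 groups of 4 checked, 7 were marked, and chance marks about 1 group in 20. Among the Wnt genes, Fzd1 was at 223 normalized counts in wild-type replicate 1 beside 196 to 199.6 in the others, and Lrp6 at 1179 in wild-type replicate 2 beside 1299 to 1314. Fzd4 was at 199 in Mbd2-/- replicate 4 beside 177 to 180.1, further in the direction of its difference. Wnt5a was at 114 in Mbd2-/- replicate 1 beside 131 to 134, and its call was lost without that library (adjusted p = 0.0571, limma). The other 3 were in Mbd2-/- replicate 4, with Chd8 at 1640.4 beside 1573 to 1579.6, the summed striatal markers at 1946 beside 2092 to 2102 and the summed markers of hippocampal neurons at 11686 beside 12209.5 to 12314.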

How the results depend on the processing

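The counts of 2 Wnt genes higher and 4 lower stayed within 1.5 times under the 12 alternatives that keep all libraries, and with a library left out they were 2 to 4 and 1 to 7. The lowest count of 1 lower gene came without wild-type replicate 4, and the highest, 4 higher and 7 lower, without Mbd2-/- replicate 4, where 17.9% and 17.7% of all genes were called. The genes of the pathway lists, 4 higher and 15 lower, were 8 and 8 without the length trend, and 3 to 6 and 8 to 23 with a library left out. Of 1022 values of single genes, named pathway genes included, 970 kept their side of the threshold, 42 lost it and 10 gained it, and the cause was not tested; 7 more had no adjusted p from DESeq2. The sample titles give no pairing of libraries by replicate number. Libraries of the same number correlated at -0.10, -0.06, 0.07 and 0.04, and 3 of 8 libraries correlated best with their own number. These correlations cannot decide whether libraries were paired. The replicate block gave 2 higher and 4 lower, and 4 and 15 on the lists, with no call changed. Standard errors were largest in Sfrp5 and Sfrp4, at 0.41 and 0.35 on the log2 scale, with means of 19.7 and 14.2 normalized counts, beside 0.23 in Sfrp2 at 15.4.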

Other observations

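Sfrp5, a secreted Frizzled-related protein, varied most among the tested Wnt genes. It had 27.0, 24.1, 10.9 and 13.3 normalized counts in wild-type and 7.66, 13.7, 39.8 and 21.1 in Mbd2-/- replicates 1 to 4, with coefficients of variation of 42.0% and 67.8%. The highest and the lowest of the 8 libraries were both Mbd2-/-, and each library pooled 2 mice.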
